A study of Mus musculus with 3 samples.

Results

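The 10 alpha-defensin genes described here were Defa24, Defa17, Defa30, Defa35, Defa5, Defa26, Defa29, Defa34, Defa28 and Defa31, which are 10 of the 20 rows named Defa and 10 of the 13891 genes in the table. They were chosen on measured values from these libraries, and so were the cells, since a cell was taken as a Paneth cell where its UMIs (unique molecular identifiers, each standing for 1 captured RNA molecule) of all Defa rows came to at least 1500 per 10000. This rule took 489 of 12653 cells. Levels of the genes in those cells are therefore a description of the selection and not a test.

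The 3′ ends of RNA were sequenced from single small intestinal cells, captured in droplets, of male ICR mice that were 3 weeks old at the start. AOS 0 mice had daily gavage of water without busulfan, B + A 0 mice had 1 injection of the chemotherapy drug busulfan at 40 mg/kg followed by water, and B + A 10 mice had busulfan followed by alginate oligosaccharide (AOS) at 10 mg/kg. All gavage ran for 2 weeks and Peyer's patches were removed from the tissue. Each group was 1 library of the combined cells of 6 mice, so the mouse a cell came from is not recorded, there is no replicate of a group, and no p-value is given. Where 3 values stand together without a library name, they are in the order AOS 0, then B + A 0, then B + A 10. The source names in the labels of B + A 0 and B + A 10 name other groups than the treatment fields do, and the treatment fields were followed. AOS 0 held 4106 cells with a median of 7371 UMIs, B + A 0 held 3195 cells with a median of 6407 and B + A 10 held 5352 cells with a median of 3505. Between 17 and 34 cell barcodes were shared by a pair of libraries, and 0 of them were shared between Paneth cells.

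Paneth cells lie at the base of the small intestinal crypts and release granules of antimicrobial proteins into the lumen. Alpha-defensins, called cryptdins in the mouse, are small cationic peptides of this kind, held together by disulfide bonds between their cysteines, and in the mouse they are cut from inactive precursors by matrilysin (Mmp7). The genes arose by repeated duplication and stand side by side in the genome, so that many copies differ by few bases.

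In the GENCODE annotation of GRCm38 the 10 genes lie at chr8:21065038-21735471, a span of 670 kb, with 9 genes on the plus strand and Defa29 on the minus strand. Each has 1 annotated transcript of 2 exons, and the last 35 codons before the stop codon lie in the second exon in all 10 genes. These 105 coding bases, which encode the carboxyl end of the precursor, are shown for 6 genes because they divide the genes into the sequence groups used below. Cysteine codons are in capitals, and each sequence is given 5′ to 3′ on the coding strand.
Defa24: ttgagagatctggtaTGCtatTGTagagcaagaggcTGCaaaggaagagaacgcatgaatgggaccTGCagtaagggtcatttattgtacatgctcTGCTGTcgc
Defa30: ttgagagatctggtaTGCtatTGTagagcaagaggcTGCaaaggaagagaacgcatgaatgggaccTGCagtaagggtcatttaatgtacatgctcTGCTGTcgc
Defa17: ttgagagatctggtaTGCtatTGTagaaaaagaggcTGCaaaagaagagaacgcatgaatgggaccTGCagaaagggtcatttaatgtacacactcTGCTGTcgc
Defa35: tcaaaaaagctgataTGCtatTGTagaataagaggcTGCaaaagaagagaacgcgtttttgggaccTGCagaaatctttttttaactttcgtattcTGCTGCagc
Defa28: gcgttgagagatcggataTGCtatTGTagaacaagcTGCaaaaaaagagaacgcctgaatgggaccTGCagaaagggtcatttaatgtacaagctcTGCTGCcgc
Defa29: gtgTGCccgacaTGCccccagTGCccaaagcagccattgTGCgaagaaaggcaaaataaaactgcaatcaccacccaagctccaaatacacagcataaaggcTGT
Defa24 (chr8:21734494-21735471), Defa30 (chr8:21134642-21135598) and Defa17 (chr8:21655780-21656735) formed a group of like sequences with Defa31, Defa26 and Defa28 (chr8:21583006-21583961), with 83.3% to 99.0% identity between any pair over this stretch. Defa24 and Defa30 differed at 1 of the 105 bases. Defa35 (chr8:21065038-21065996) was identical over the stretch to Defa5 and Defa34, and this group of 3 had at most 77.1% identity with the other members. Both groups carried 6 cysteine codons. Defa29 (chr8:21325887-21327020) had 116 codons where the others had 93 or 94, with 5 cysteine codons in the stretch at other positions, and 38.2% to 48.7% identity to the rest.

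The likeness of the copies bears on every level below, because Cell Ranger counts a read for a gene only where it maps to that gene alone. Transcripts were divided into all stretches of 90 bases and compared with every other annotated transcript. All 330 stretches of Defa24 were found in no other gene, and the same held for 95.5% of those of Defa30, 95.4% of Defa26, 86.6% of Defa29 and 70.9% of Defa35. Defa17 had 9.09% of its own, since 280 of its 308 stretches also occur in Defa3. Defa5 and Defa34 shared 217 stretches with each other, which left 8.01% of Defa5 and 24.1% of Defa34 unique. In the last 300 bases, nearest to where UMIs were counted, 0.474% of Defa5 and 0% of Defa34 were unique. Defa28 had 54.7% unique stretches, or 70.6% in the last 300 bases, and shared others with Defa-ps18, Defa25 and Defa27. All 288 stretches of Defa31 occur in Defa23. Levels of Defa17, Defa5, Defa34 and Defa31 may thus be too low, and reads with differences from the reference could be counted for the neighbouring copy, which was not tested.

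RefSeq upstream sequence (GRCm38.p6) was matched for 4 of the 10 members, Defa35, Defa30, Defa31 and Defa28. It was searched over the 250 bases before the RefSeq start for TATAAA on the strand of the gene. TATAAA occurred in 3 of the 4 and in 7.59% of 32851 upstream sequences of the same length. The letters CTTTGAA, a form of the site of TCF/LEF factors of the Wnt pathway, were searched on both strands and occurred in 0 of the 4 and in 4.46% of all sequences. The 120 bases before the more upstream of the GENCODE and RefSeq starts are given for Defa30 (chr8:21134522-21134641, plus strand) and Defa35 (chr8:21064918-21065037, plus strand), with high levels, and for Defa28 (chr8:21582886-21583005, plus strand), the member with the lowest level. Capitals mark TATAAA.
Defa30: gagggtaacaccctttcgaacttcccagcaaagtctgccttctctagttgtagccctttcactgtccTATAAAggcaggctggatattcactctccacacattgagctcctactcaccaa
Defa35: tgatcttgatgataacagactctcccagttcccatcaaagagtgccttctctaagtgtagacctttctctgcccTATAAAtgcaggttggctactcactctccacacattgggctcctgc
Defa28: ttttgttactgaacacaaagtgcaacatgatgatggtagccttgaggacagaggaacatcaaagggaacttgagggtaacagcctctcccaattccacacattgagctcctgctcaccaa
TATAAA began 53 bases before the start in Defa30 and 46 bases before it in Defa35. Defa31, not shown and also a low member, had TATAAA 33 bases before its start. Defa28 had no TATAAA in the window. Defa30 and Defa35 were 72.4% identical over the 120 bases in a global alignment, and Defa28 was 52.8% and 53.0% identical to them. A match of letters is no evidence of a bound factor.

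By the rule, AOS 0 held 109 Paneth cells (2.65% of its cells, exact binomial 95% interval 2.18 to 3.19), B + A 0 held 189 (5.92%, 5.12 to 6.79) and B + A 10 held 191 (3.57%, 3.09 to 4.10). These and all other intervals cover counting error alone. The summed Defa level of the cells just outside the rule was 1442, 1461 and 1471, and that of the cells just inside it was 1520, 1555 and 1511. The highest cell of a library reached 7591 to 7991. Paneth cells were deep, with a median of 20042, 21667 and 8595 UMIs, and the Defa rows made up 56.2%, 55.7% and 57.3% of all their UMIs.

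The name Paneth cell was checked with genes that the rule did not use. All 9 Paneth cell markers other than Defa rows were higher in the chosen cells than in the other cells of the same library, in each of the 3 libraries. Among these 9, Gm14851 is an alpha-defensin-like row that shares 56 stretches of sequence with the member Defa29. It is therefore no independent check of the name. Of a longer list of 18 Paneth cell genes, 14 were higher in each library. Reg3g, Reg3b and Guca2b were lower in the chosen cells in all 3, with Reg3b at 35.9, 60.1 and 47.2 UMIs per 10000 against 256, 254 and 213 in the other cells, and Ang6 had at most 4 UMIs. Lyz1, the Paneth cell lysozyme, was at 332 UMIs per 10000 in the chosen cells of AOS 0 and at 3.11 in the other cells. The level was 254 against 6.19 in B + A 0 and 173 against 3.20 in B + A 10. When all cells were clustered without any defensin row, 81 of 109, 161 of 189 and 124 of 191 chosen cells fell into the cluster led by Mptx2, Ang4 and Lyz1 (called the Paneth cluster). It held 3 cells outside the rule, all in B + A 10. Of the 102 chosen cells with a summed level of 1500 to 3000, 12 were in the Paneth cluster and 62 in goblet clusters, and from 3000 to 5000, 82 were in the Paneth cluster and 22 in goblet clusters. From 5000 upwards 272 of 278 cells were in the Paneth cluster. The markers thus went against the name for most cells of the lowest band, which are called Paneth cells here by the rule alone, and correlations are also given for the Paneth cluster.

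Defa24 was the most abundant transcript of all genes in Paneth cells of every library. Pooled over cells it was at 2957 UMIs per 10000 in AOS 0 (95% Poisson interval 2951 to 2964). It was at 2658 (2653 to 2663) in B + A 0 and at 2484 (2478 to 2491) in B + A 10. The lowest, median and highest cell of AOS 0 had 428, 2762 and 4502, those of B + A 0 had 957, 2568 and 4137 and those of B + A 10 had 766, 2358 and 4075. The ranges over cells of the 3 libraries overlapped.

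Defa30 was second in all libraries, at 834, 991 and 1174.5 UMIs per 10000. Single cells ran from 8.95 over a median of 771 to 1529 in AOS 0, from 8.60 over 944 to 1611 in B + A 0, and from 5.09 over 1044 to 1898 in B + A 10. Defa17 was at 704, 749 and 892, with medians over cells of 658, 674 and 736. Both genes were detected in all 489 cells.

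Defa29 was at 516, 467 and 409 UMIs per 10000 and Defa35 at 368, 415 and 339.8. By pooled level these were the fourth and the fifth gene of all genes in each library. Medians over cells were lower than the pooled levels, at 428, 351 and 266 for Defa29 and at 323, 407 and 246 for Defa35. Some Paneth cells of each group had 0 UMIs of Defa35, which was detected in 90.8%, 98.9% and 93.2% of them.

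**Figure D1:**
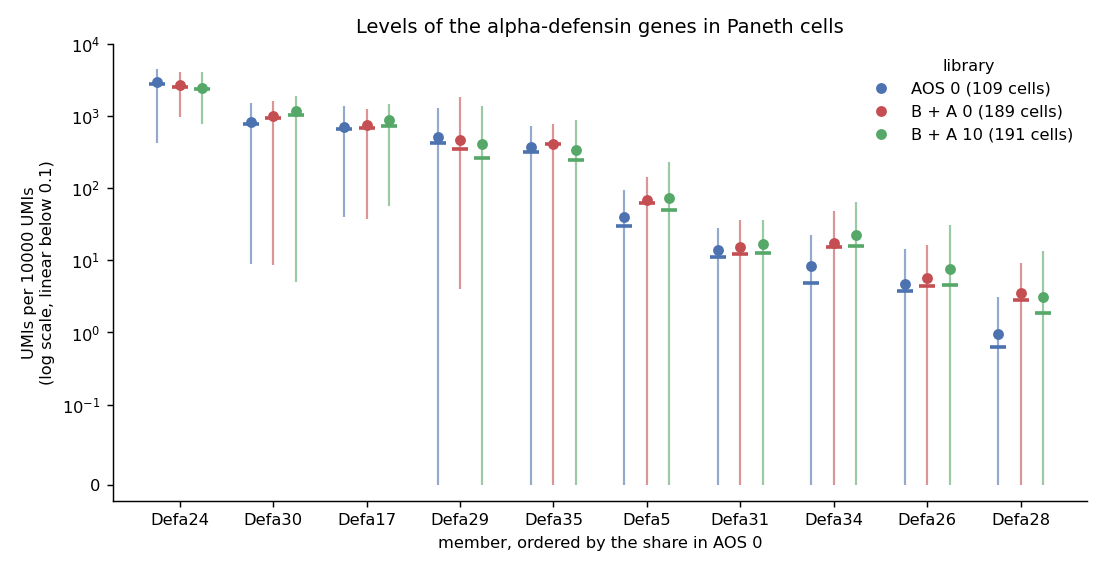
Levels of the 10 genes in the Paneth cells of each library, in UMIs per 10000 UMIs on a log scale that is linear below 0.1. Points are UMIs pooled over cells, short bars are medians over cells and vertical lines run from the lowest to the highest cell; Defa24 stands at 2484 to 2957 and Defa28 at 0.963 to 3.48.

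The other 5 members were far lower. Defa5 was at 40.5, 68.2 and 73.2 UMIs per 10000, Defa31 at 13.7, 15.3 and 16.7, Defa34 at 8.26, 17.5 and 22.4, Defa26 at 4.75, 5.73 and 7.60, and Defa28 at 0.963, 3.48 and 3.15. Defa28 rested on 246, 1590 and 709 UMIs, and the median Paneth cell had 1, 6 and 1 of them. The word abundant therefore describes the upper 5 members and not the lower 5. Defa37, which is not among the members, stood above these 5 at 171, 176 and 161 and was sixth of the Defa rows in each library, although each of its 314 stretches also occurs in Defa36.

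As shares of all UMIs of Defa rows, the 10 members made up 96.9%, 96.8% and 94.7%, and the 5 highest made up 95.7%, 94.8% and 92.5%. UMIs were counted at the 3′ end, so shares were not divided by transcript length. Defa24 held 52.6% of the family in AOS 0 (exact binomial 95% interval 52.5 to 52.7), 47.7% in B + A 0 (47.7 to 47.8) and 43.4% in B + A 10 (43.3 to 43.5). Defa30 held 14.8%, 17.8% and 20.51% in the same order, and Defa17 held 12.5%, 13.4% and 15.6%. Defa29 held 9.18%, 8.38% and 7.14%, and Defa35 held 6.55%, 7.46% and 5.93%. Defa5 held 0.721%, 1.22% and 1.28%.

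By pooled share the order Defa24, Defa30, Defa17, Defa29, Defa35, then Defa37 and Defa5 was the same in the 3 libraries. Thus 6 of 10 members held the same pooled rank among Defa rows everywhere. The other 4 changed rank. Defa31 had rank 8, 9 and 11, Defa34 had 9, 8 and 10, Defa26 had 10, 10 and 14 and Defa28 had 12, 11 and 15. Neighbours in the order had intervals of the pooled share apart in every library, except that Defa28 could not be told from Defa3 in AOS 0 and from Defa27 in B + A 10. These intervals leave out the spread between cells. By median level over cells, Defa35 (407) stood above Defa29 (351) in B + A 0. By median share of the family Defa29 (7.01%) stayed just above Defa35 (6.90%) there.

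The makeup of the family differed between cells far more than counting allows. The variance of the share of Defa24 over cells was 322, 278 and 297 times its binomial variance, and that of Defa29 was 514, 537 and 372 times. A ratio of 1 would be counting alone, and Defa28 came nearest to it at 1.24, 1.76 and 2.11. The ratio grows with depth. With cells of at least 1000 family UMIs thinned to 1000, and the others left out, the median over members was still 14.2, 10.2 and 17.5. Defa29 ran from 0% of the family in the lowest cell to 27.1% in the highest in AOS 0, from 0.111% to 35.5% in B + A 0 and from 0% to 25.2% in B + A 10. Defa17 ran from 2.10% to 39.5%, from 1.36% to 32.4% and from 2.33% to 48.4%.

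Levels of the members were positively correlated over cells. Pearson's r of the ln values was above 0 for all 45 pairs in each library, with a median of 0.67, 0.62 and 0.59. Defa35 and Defa5 had the highest r in each library, at 0.95, 0.94 and 0.91. The lowest was 0.39 for Defa34 and Defa28 in AOS 0, 0.28 for Defa24 and Defa29 in B + A 0 and 0.36 for Defa24 and Defa17 in B + A 10. The cells of a library share that library, its depth and 6 unmarked mice, and the ln of a cell's depth had an r of 0.51, 0.46 and 0.47 with the ln family level, so these values are given without p.

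The correlation was lower where cells outside the Paneth cluster were left out. Over the 81, 161 and 124 chosen cells in the Paneth cluster the median r was 0.45, 0.45 and 0.21, and 42, 43 and 38 of the 45 pairs stayed above 0. Within that cluster the pairs of Defa35, Defa5 and Defa34, which have identical coding ends, had a median r of 0.70, 0.66 and 0.53. The 15 pairs among Defa24, Defa17, Defa30, Defa31, Defa26 and Defa28 had 0.49, 0.53 and 0.34, and the 27 pairs across sequence groups, those with Defa29 included, had 0.35, 0.20 and 0.16. Defa17 and Defa5 had -0.01, 0.06 and -0.17 there. Single pairs did not follow these medians throughout, since Defa30 and Defa35, with unlike ends, had 0.77, 0.73 and 0.47, and Defa35 and Defa34, with identical ends, had 0.54, 0.56 and 0.35. The part of reads counted for a near copy was not tested.

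**Figure D2:**
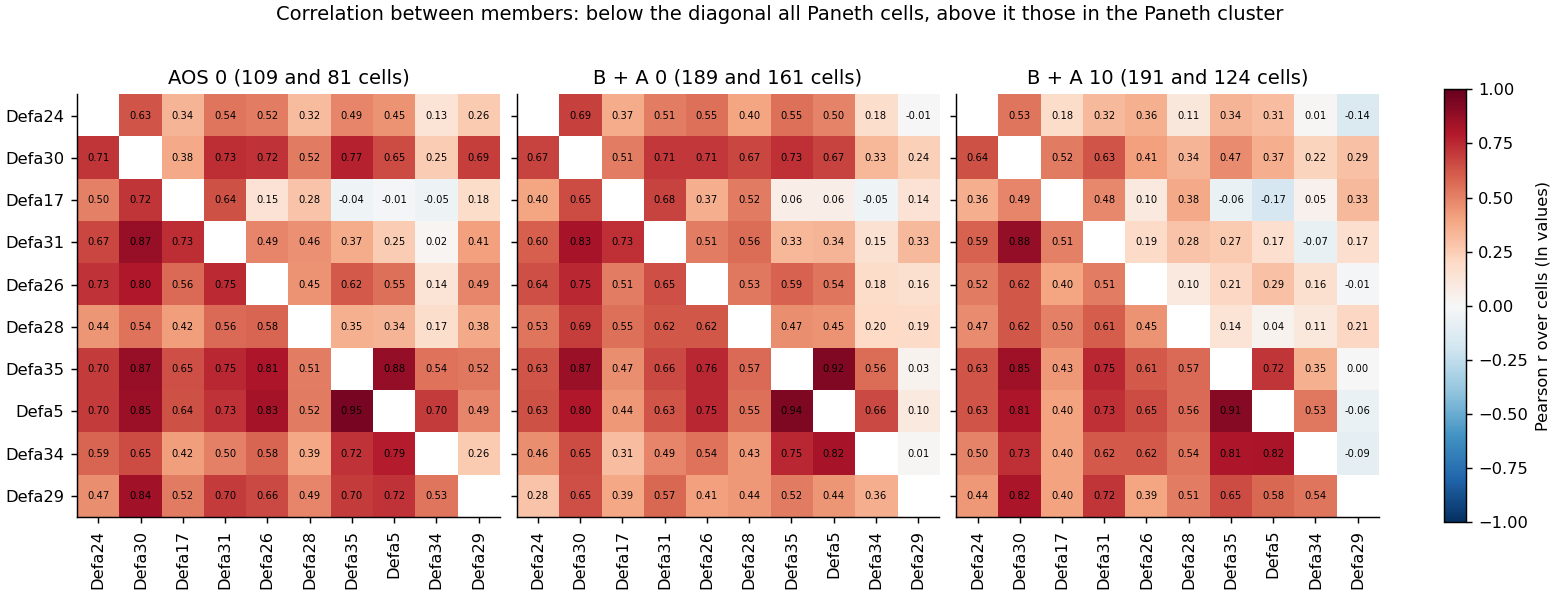
Pearson's r between members over cells, from ln values, in the 3 libraries. Values below the diagonal are over all Paneth cells, and values above it over those in the Paneth cluster, as the cell numbers in each title give; all values below the diagonal are positive, and above it Defa35 and Defa5 keep 0.88, 0.92 and 0.72, while Defa35 and Defa34 have 0.54, 0.56 and 0.35.

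Centred log ratios within the family remove the level the members share. They were computed for the 6 members with at least 0.5% of the family (Defa24, Defa17, Defa30, Defa35, Defa29 and Defa5), where values must balance around 0. Defa35 and Defa5 stayed together, with r of 0.73, 0.75 and 0.62, and Defa24 and Defa17 had 0.78, 0.66 and 0.81 (0.74, 0.56 and 0.30 in the Paneth cluster). Defa24 and Defa35 went apart at -0.79, -0.70 and -0.72, as did Defa17 and Defa35 at -0.75, -0.75 and -0.74. In the Paneth cluster alone Defa17 and Defa35 kept -0.77, -0.57 and -0.52, while Defa24 and Defa35 came to -0.56, -0.20 and -0.06. Defa24 and Defa30 had 0.20, 0.13 and -0.29 over all chosen cells and 0.31, 0.40 and 0.45 in that cluster, so their sign turned in B + A 10.

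Shares also moved with how much of the family a cell held. Defa30 held more of the family where the family was high, from 6.10% of the family in AOS 0 cells of 1500 to 3000 UMIs per 10000 to 15.6% in cells above 5000. The change was from 9.14% to 18.4% in B + A 0 and from 7.53% to 21.7% in B + A 10. Defa35 went from 0.658% to 7.07%, from 2.27% to 7.73% and from 1.197% to 6.43%. Defa24 went the other way, from 70.4% to 51.7% in AOS 0. Its change was from 64.0% to 47.5% in B + A 0 and from 63.2% to 42.0% in B + A 10. In the band between, from 3000 to 5000, Defa24 was at 52.6%, 46.1% and 45.7%. Most of its fall thus lay between the lowest band and this one, and in B + A 0 it rose above 5000. Defa30 and Defa35 still rose from this band to the highest in each library. Of the 102 cells from 1500 to 3000, 12 were in the Paneth cluster and 62 in goblet clusters. Goblet cell RNA moved with these bands, as Muc2, the main intestinal mucin, went from 54.7 to 4.16 UMIs per 10000 in AOS 0, from 52.2 to 5.68 in B + A 0 and from 52.8 to 4.83 in B + A 10. The part of goblet cells in these shares was not tested.

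**Figure D3:**
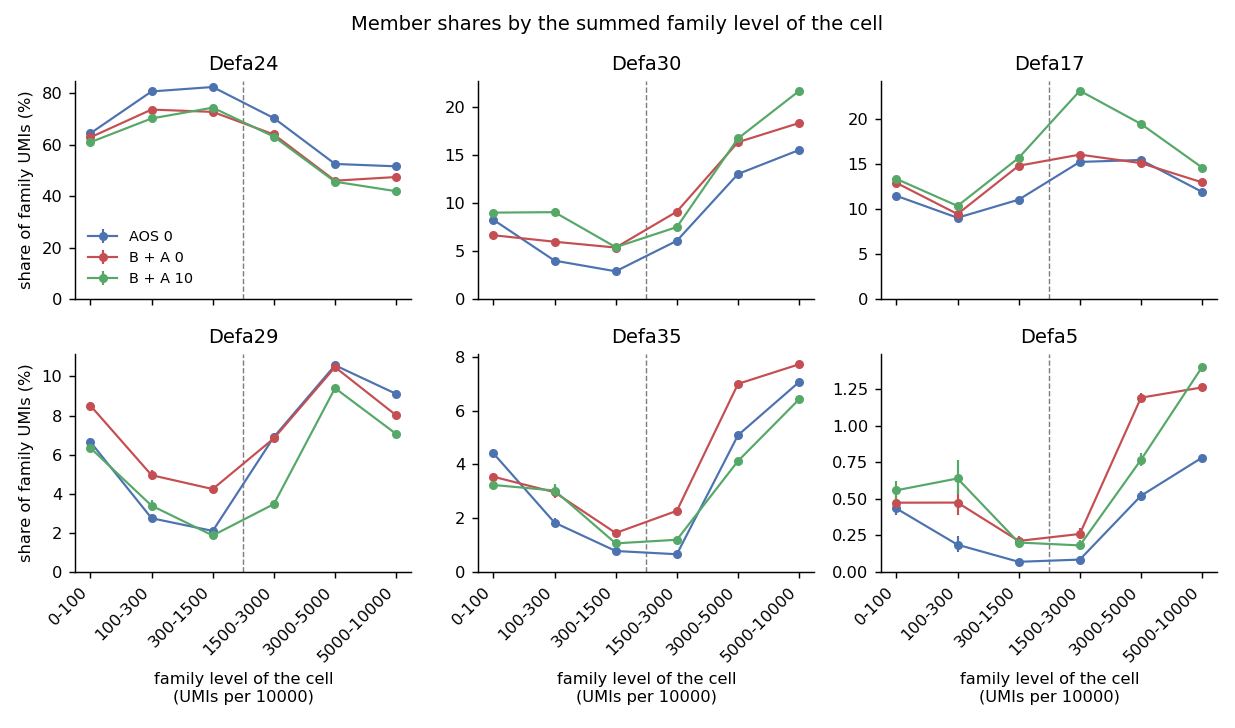
Share of all family UMIs held by 6 members, in percent, in bands of the summed family level of the cell (UMIs per 10000), with exact binomial 95% intervals. The dashed line is the rule of 1500; Defa24 is highest in the bands just left of it, and Defa30, Defa35 and Defa5 are highest in the right-most band in each library.

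Outside the Defa rows, 583 genes had a UMI in at least 50% of the Paneth cells of each library. The 5 whose level per 10000 non-Defa UMIs was most like the summed family over cells were Gm15292, an alpha-defensin-like row (mean r over the 3 libraries 0.92), Ang4, an antimicrobial ribonuclease (0.87), Clps, the pancreatic lipase cofactor colipase (0.85), Lyz1 (0.78) and Mptx2, a pentraxin (0.68). The 5 least like it were Lgals2 (-0.65), Tmsb10 (-0.56), Klk1 (-0.53), Muc2 (-0.53) and Tff3 (-0.52), the last 2 of them goblet cell genes. With cells of 3000 or more only, and likewise with the Paneth cluster only, 4 of these 10 genes were among the 10 named.

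Differences between libraries were compared as ratios of pooled levels in Paneth cells, called where they passed 1.5-fold for genes with at least 300 UMIs in both libraries together. With 1 library per group these ratios compare libraries and cannot be told apart from differences between pools of mice. In B + A 0 over AOS 0, 3 of 10 members passed the fold, all higher, and 15.3% of 978 genes did. In B + A 10 over B + A 0, 0 of 10 members passed it and 3.7% of 973 genes did. In B + A 10 over AOS 0, 4 of 10 members passed it, all higher, against 13.1% of 635 genes. The median ratio of the members was 1.16, 1.08 and 1.34 in these comparisons, and that of all genes tested 1.16, 0.934 and 1.09. The share of all genes past the fold depended on the cells used. Over the chosen cells in the Paneth cluster 3, 0 and 4 members passed it in these comparisons, against 29.2%, 9.96% and 16.9% of genes. With cells from 3000 up the same numbers of members stood against 25.9%, 4.76% and 18.7%. In B + A 0 over AOS 0 the members were then near the share of all genes.

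By pooled level, the members past the fold were all among the low ones. Defa28 was 3.61-fold higher in B + A 0 than in AOS 0 (95% interval 3.16 to 4.15) and 3.27-fold higher in B + A 10 than in AOS 0 (2.83 to 3.80). Defa34 was 2.12-fold (2.02 to 2.22) and 2.71-fold higher (2.58 to 2.86), and Defa5 was 1.68-fold (1.65 to 1.72) and 1.80-fold higher (1.76 to 1.85). Defa26 was 1.60-fold higher in B + A 10 than in AOS 0 (1.49 to 1.72), and this passed the fold neither as a median over cells (1.24) nor without the 14 B + A 10 cells in which Defa21, another Defa row, made up 1% or more of the family (1.35). The pooled levels of the 5 high members stayed between 0.792-fold for Defa29 and 1.41-fold for Defa30, both in B + A 10 over AOS 0. As medians over cells, Defa29 passed the fold downward at 0.621 in B + A 10 over AOS 0, and Defa35 at 0.603 and Defa28 at 0.662 did so in B + A 10 over B + A 0. The median cell had 6 UMIs of Defa28 in B + A 0 and 1 in B + A 10. By medians 3 of 10 members passed the fold in B + A 0 over AOS 0, against 29.3% of all genes. For B + A 10 over B + A 0 it was 2 against 23.4%, and for B + A 10 over AOS 0 it was 4 against 24.5%.

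Markers of other cells were also summed in the Paneth cells. Summed over 8 enterocyte markers, the level in Paneth cells was 22.9, 69.5 and 53.8 UMIs per 10000, and none of the 8 was at 0. Over 7 T cell markers it was 0.615, 4.64 and 5.28, also with none at 0. Both were higher in both busulfan libraries than in AOS 0. So were ileal enterocyte markers (3.90, 10.7 and 8.20) and enteroendocrine markers (0.0626, 0.269 and 0.165). Other sums were not higher in both, namely stem and crypt (4.08, 4.93 and 3.83), dividing (2.49, 2.53 and 1.76) and myeloid (1.95, 1.76 and 1.81). The sums for tuft, B and plasma, red and stroma cells were at most 0.0267. Over 7 goblet cell markers the sum was 451, 426 and 559, which was lowest in B + A 0. The part of free RNA or doublets in the member ratios was not tested.

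**Figure D4:**
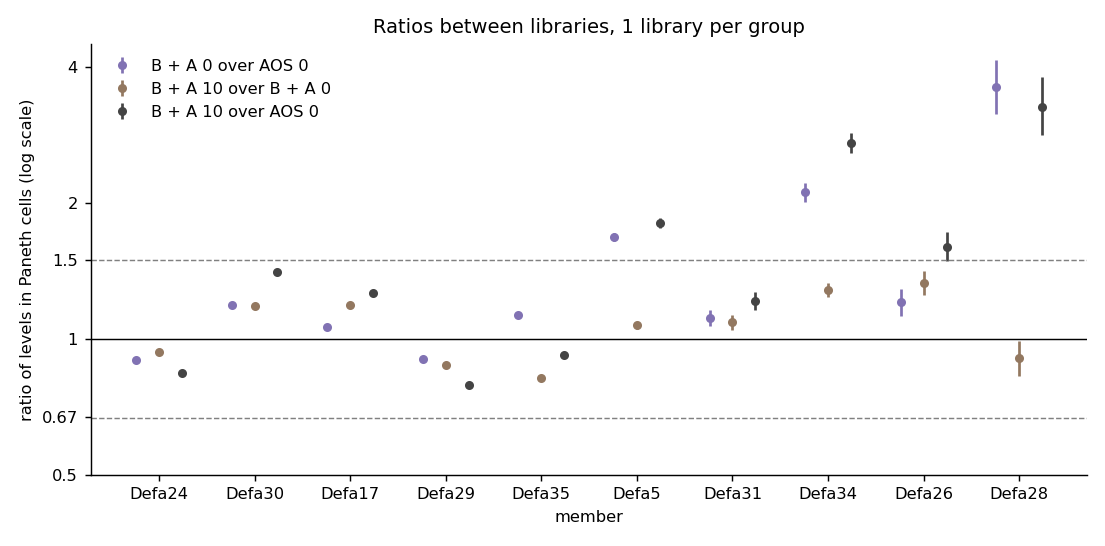
Ratios of member levels in Paneth cells between libraries on a log scale, with exact 95% intervals for counting error. Dashed lines mark 1.5-fold either way; Defa5, Defa34 and Defa28 lie above the upper line in both busulfan libraries over AOS 0, and no member passes a line in B + A 10 over B + A 0.

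Several Paneth cell genes that are not defensins were lower in B + A 10. The summed Defa level chose these cells and is no measure to set them against. Of 20 listed Paneth cell genes that are not defensins 18 were in the table. In B + A 10 over AOS 0, 11 had enough UMIs and 8 of them passed 1.5-fold, all lower, among them Mptx2 (216 against 64.0 UMIs per 10000), Lyz1 (332 against 173), Ang4 (175 against 94.0) and Itln1, a lectin that binds microbial sugars (201 against 108). Of all genes tested there, 83 of 635 passed it, 70 of them higher. In B + A 10 over B + A 0, 5 of 12 passed it and all were lower (Mptx2, Ang4, Mmp7, Clps and Pnliprp2). Of all genes 36 of 973 passed it, 15 of them higher. In B + A 0 over AOS 0, 2 of 13 were lower (Mptx2 and Mptx1) and 1 was higher (Reg3b, an antimicrobial lectin). Of all genes 150 of 978 passed it, 139 of them higher. The Paneth cluster held 81 of 109, 161 of 189 and 124 of 191 of the cells compared. Within it, in an alternative added after seeing the data, 8 of 11 passed the fold in B + A 10 over AOS 0, the same genes as over all chosen cells. Of all genes 76 of 451 passed it in the cluster. In B + A 10 over B + A 0, 5 of 12 passed it there, but Ang4, Mmp7 and Clps did not and Mptx1, Reg3b and Reg3g did. Of all genes 79 of 793 passed it in this comparison within the cluster.

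Of 19 genes for processing of the precursors, secretion and Paneth cell fate, 5 had enough UMIs in each comparison. Mmp7, which cuts the precursors, was at 16.7, 14.9 and 9.72 UMIs per 10000 and was the only one of them past the fold, in both comparisons of B + A 10. Of all genes 3.7% passed it in B + A 10 over B + A 0 and 13.1% in B + A 10 over AOS 0. Agr2, a protein disulfide isomerase of secretory cells, was at 26.9, 21.9 and 25.01, and Cd24a, a surface glycoprotein used to sort Paneth cells, at 5.34, 5.02 and 4.18. Nod2, a sensor of bacterial wall fragments, had 0, 2 and 2 UMIs, which allows no comparison at this depth.

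RNA of the members was also counted in the cells below the rule. All of the 3997, 3006 and 5161 other cells had at least 1 member UMI. Their summed member level was 50.2 UMIs per 10000 in AOS 0 (95% Poisson interval 50.003 to 50.49), 84.0 in B + A 0 (83.6 to 84.4) and 68.8 in B + A 10 (68.5 to 69.2), and the median cell had 21.4, 48.6 and 32.8. Their order followed that of the percentage of Paneth cells in the libraries, 2.65%, 5.92% and 3.57%. The pooled levels of goblet clusters and of T cell clusters, given below, did not have this order, while their medians over cells did. The source of this RNA was not tested. Other cells held 10.6%, 6.82% and 10.5% of all member UMIs.

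With every cell thinned to 1000 UMIs, which left out no cell, Defa24 was found in 75.3%, 95.9% and 88.1% of other cells, and without thinning in 99.9%, 100% and 99.8%. Defa17 was found in 28.0%, 51.7% and 42.6% and Defa30 in 21.2%, 32.0% and 30.8% after thinning. Defa28 was found in 0.125%, 0.266% and 0.116%. Paneth cells exceeded the other cells in level 77.0-fold, 45.2-fold and 51.2-fold for Defa24, but 310-fold, 188-fold and 221-fold for Defa30 and 298-fold, 179-fold and 211-fold for Defa35.

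The family in other cells thus had another makeup than in Paneth cells. Defa24 held 74.9% of it in AOS 0 (74.7 to 75.1), 68.0% in B + A 0 (67.8 to 68.2) and 68.1% in B + A 10 (67.8 to 68.3), which is 22.3, 20.3 and 24.7 percentage points above the share in Paneth cells. As a mean over cells of each cell's share the difference was 7.07, 12.7 and 12.2 points, the smallest of the alternatives run. Defa30 held 5.25%, 6.11% and 7.47%, against 14.8%, 17.8% and 20.51% in Paneth cells. Defa17 held 10.96%, 13.2% and 14.02%, close to its share in Paneth cells. In the other cells below 100 UMIs per 10000, which were 92.5%, 88.9% and 90.4% of them, Defa24 held 64.5%, 62.9% and 61.0%.

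The classes with the highest Defa24 share were the goblet clusters. In goblet clusters the other cells had a summed member level of 172, 175 and 199.6 UMIs per 10000 and a Defa24 share of 83.3%, 75.9% and 78.8%. In enterocyte clusters they had 22.8, 52.3 and 37.6 and a Defa24 share of 62.6%, 62.0% and 58.0%. T cells should make no alpha-defensin. Their clusters had 69.0, 70.9 and 55.8 as pooled levels but 30.3, 48.2 and 34.6 as medians over cells, and the median cell of the goblet clusters had 36.5, 65.7 and 51.8. At a finer resolution of 2.0, a cluster of 128 cells named T cell was led by Slpi, Wfdc18 and Gp2. These are not among the T cell markers used, so the class may hold other cells too. Median depths were 7414.5, 6018 and 3539 UMIs in goblet clusters and 5542, 6408.5 and 3509 in T cell clusters. Among goblet cluster cells below 100 UMIs per 10000, the Defa24 share was 70.9% (69.9 to 71.8), 65.7% (64.9 to 66.5) and 65.6% (64.5 to 66.6), against 62.8% (62.0 to 63.6), 62.6% (61.9 to 63.2) and 59.8% (59.1 to 60.6) in enterocyte clusters. The intervals of both classes did not overlap in any library, but they cover counting error and no spread between cells or mice. The source of the Defa24 RNA in goblet clusters was not tested.

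The Defa24 share was highest between 300 and 1500 UMIs per 10000 in AOS 0 and B + A 10, and between 100 and 300 in B + A 0 (73.7%). Cells from 300 to 1500 numbered 127, 128 and 201, with 82.5%, 72.8% and 74.4% of the family in Defa24, and 87, 76 and 139 of them were in goblet clusters. Their median depth of 8470, 7150.5 and 3824 UMIs was near that of their libraries, and 11.8%, 9.38% and 9.45% of them were among the cells with the highest 5% of Scrublet doublet scores. Spink4, a secreted peptide of goblet and Paneth cells, was at 497, 450.0 and 571 UMIs per 10000 in them, and Mptx2 was at 4.68, 3.93 and 1.38 against 216, 130 and 64.0 in Paneth cells.

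**Figure D5:**
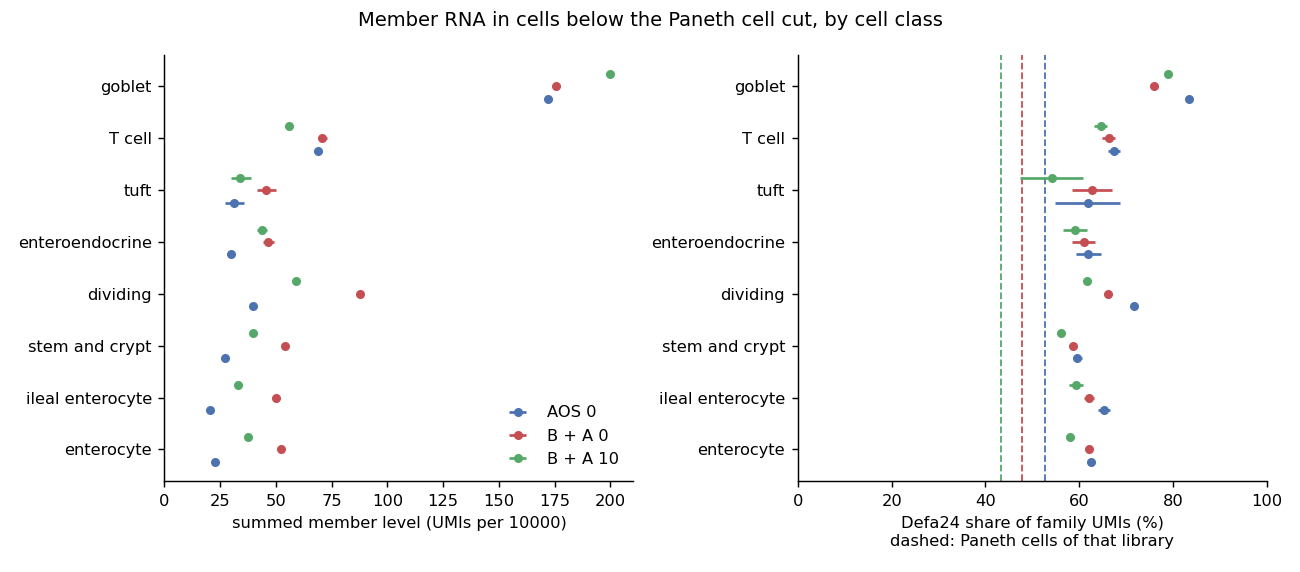
Member RNA in cells below the rule, by cell class from clusters made without defensin rows, with the summed member level (UMIs per 10000) on the left and the Defa24 share of family UMIs on the right, each with 95% intervals. Goblet clusters have the highest level in each library, 172 to 199.6, and the highest Defa24 share, and all classes drawn lie right of the dashed lines for Paneth cells.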

How the data were processed

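Cells of 3 libraries were dissociated with EDTA and TrypLE and sequenced on the droplet platform of 10x Genomics. Per the labels and methods, reads were counted with Cell Ranger 2.2.0 against mm10 with 5000 cells forced per library, although B + A 10 holds 5352 cells, and cells with under 200 genes and genes in under 3 cells were removed. The authors deposited natural log values, ln(1 + UMIs per 10000 UMIs of the cell). Whole UMIs were recovered from them, and 24333763 of 24333763 values above 0 were whole within 0.01 UMI. The libraries held 35258551, 26044381 and 23003083 UMIs, which sets the counting intervals.

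The members, the lists and the rule for Paneth cells were chosen with earlier results of these data known. Pooled levels, shares, ratios and correlations were computed in Python 3.11.15 with scipy 1.17.1 (exact Poisson and binomial 95% intervals). Cells were clustered without defensin rows with scanpy 1.11.5 and leidenalg 0.10.2 (2000 variable genes, 30 components, 20 neighbours, resolution 1.0), and clusters were named from markers by a rule made with the clusters in view. Scrublet called 7, 4 and 4 cells, so its calls were not used and doublets were kept. Named genes outside the family were the 5 most and the 5 least correlated with it among genes detected in at least 50% of Paneth cells. Ratios were checked on simulated data. 72 alternatives were planned and 15 were added after seeing the data, and the closing section gives those that moved a summary value and counts of the rest. Another group, AOS 10, was not analysed here.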

Additional observations from a re-analysis of the deposited data

Results flagged for a closer look

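Several alpha-defensin rows that are no members had UMIs in Paneth cells of B + A 10 far above the levels in AOS 0 and B + A 0. Defa21 was at 56.2 UMIs per 10000 (12632 UMIs, against 3 in AOS 0 and 10 in B + A 0) and Defa22 at 61.4 (13816, against 57 and 325). Gm7849 was at 80.6 (18118, against 5 and 14), Defa20 at 11.6 (2616, against 6 and 18) and Defa3 at 10.5 (2362, against 194 and 335). Defa2 was at 0.138 and Defa33 at 0.107, with 31 and 24 UMIs against 0 in both other libraries.

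Of 191 Paneth cells, 14 had Defa21 at 1% or more of the family, from 1.78% to 9.71%, and held 98.9% of its UMIs, while the other 177 cells reached at most 0.448%. In these 14 cells Defa22 made up 7.90% of family UMIs and Gm7849 amounted to 7.60%. The other 177 cells had Defa22 at 0.0823% (at most 3.05% in a cell) and Gm7849 at 0.509% (at most 13.5%). Gm7849 was thus not confined to the 14 cells. Defa17 held 10.2% in them against 16.4% in the other cells, and Defa35 held 3.35% against 6.31%. Median depth was 14478 UMIs in the 14 cells and 8512 in the others. The cells come from 6 pooled mice that are not told apart, and a part of single mice was not tested.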

How the results depend on the processing

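Of 149 values that summarise a comparison, 103 kept within a set limit under the alternatives, 43 moved and 3 reversed. Some of the 103 could not have moved. Asking for cells with at least 2000 UMIs changed none of the values. Leaving out B + A 10 cells with Defa21 could not change values of AOS 0 and B + A 0 alone. The limit was 1.5 times for counts and variance ratios, 0.1 for median correlations and the counting interval for levels in other cells. Of 936 values of single genes and shares, 545 kept their limit or call, 386 moved, 3 newly passed the fold and 2 no longer did. The median correlation (0.67, 0.62, 0.59) was 0.413, 0.276 and 0.329 with cells from 3000 up and 0.798, 0.749 and 0.726 on a scale without Defa UMIs. It was 0.523, 0.474 and 0.477 with cells thinned to 3000 UMIs, where cells with fewer UMIs were left out. Within the Paneth cluster it was 0.449, 0.450 and 0.210, and as Spearman's rho it was 0.488 in B + A 0. As centred log ratios of all 10 members, which balance around 0 by construction, it reversed to -0.146, -0.121 and -0.232. The member level in other cells was 42.5, 73.5 and 54.8 with the rule at 1000, 69.1, 115 and 96.5 at 3000, 48.6, 80.7 and 66.9 without the highest 5% of doublet scores, 50.5, 84.7 and 69.3 without Defa UMIs in the scale, 50.6, 82.0 and 68.1 as a mean over cells, 21.4, 48.6 and 32.8 as a median and 21.6, 46.2 and 32.1 below 100. The variance ratio thinned to 1000 family UMIs, in cells with at least that many, was 14.2, 10.2 and 17.5. Of the named like genes 4 were shared with cells from 3000 up and 4 in the Paneth cluster. Members past the fold in B + A 10 over B + A 0 numbered 2 by medians over cells (23.4% of all genes) and 2 at the lower fold limit tried (21.6%). In B + A 10 over AOS 0 they numbered 7 at that lower limit (36.7% of all genes) and 2 at 2-fold (5.20%). The Defa24 share stayed higher in other cells than in Paneth cells in all 3 libraries under every alternative run, by 7.07 to 23.3, 12.7 to 20.7 and 12.2 to 24.9 percentage points. The cause of these shifts was not tested. No paired analysis was possible because each group is 1 library.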
